A study of Mus musculus with 32 samples.

Results

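The noncoding RNAs described here are 10 genes whose products work as RNA: Malat1 and Neat1, which are long and stay in the nucleus, and Rn7sk, Rn7s1, Rn7s2, Rmrp, Rpph1, Rny1, Rny3 and Terc, which are short and folded. They were chosen by symbol, with earlier results of these data known. Rmrp is annotated under 2 identifiers, so the 10 symbols correspond to 11 of the 55401 genes listed in each of 5 expression tables. The cells were embryonic fibroblasts of the mouse line OG2X129 undergoing chemical reprogramming, the conversion of somatic cells to induced pluripotent stem cells (iPSC) with small molecules, together with pluripotent cell lines. The 32 libraries form 16 groups of 2.

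The CD table compares reprogramming cells with CD added, which the series title gives as CD3254, an agonist of the retinoid X receptor, with cells given DMSO. The Rxra OE table compares overexpression of Rxra with its control CTR. The shE3 table compares knockdown of Exosc3, which encodes a subunit of the RNA exosome, with the control hairpin shCTR. The actinomycin D table follows CD and DMSO cultures at 0, 4 and 8 h of actinomycin D, an inhibitor of transcription whose dose is not given in the labels. All reprogramming groups share a medium with vitamin C, EPZ004777, AM580, Forskolin, Parnate, 616452, CHIR99021, VPA and bFGF. The iPSC table holds CD iPSC, DMSO iPSC (spelled DMSP in the titles), R1 embryonic stem cells from mouse blastocysts and MEF, embryonic fibroblasts whose other labels name a WT shRNA and the reprogramming treatment. The labels do not say whether the 2 libraries of a group are separate cultures, so p-values measure only the spread between these samples. They also do not say which RNAs the libraries select or whether strand was kept.

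As background, 7SK RNA, the product of Rn7sk, holds the elongation factor P-TEFb inactive together with Hexim and Larp7 proteins. 7SL RNA, from Rn7s1 and Rn7s2, is the scaffold of the signal recognition particle, which brings ribosomes making secreted proteins to the endoplasmic reticulum. Rpph1 is the RNA of RNase P, which trims the 5′ ends of tRNAs, and Rmrp is the RNA of the related RNase MRP, which acts in ribosomal RNA processing. Y RNAs (Rny1, Rny3) bind the Ro60 and La proteins, and Terc is the template RNA of telomerase. Malat1 collects in nuclear speckles and Neat1 builds paraspeckles. Most of the short RNAs are made by RNA polymerase III and carry no poly(A) tail, and the nuclear exosome trims or destroys the 3′ ends of many structured RNAs.

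Sequences are printed because annotated entries repeat one another, which decides where a read can be counted. They are GENCODE M21 transcripts on GRCm38, the assembly also called mm10. Rn7s1 (chr12:69159295-69159594, plus strand) and Rn7s2 (chr12:69361182-69361481, minus strand) are 300 bases long with 0 mismatches. A 70-base window, positions 143 to 212, is also annotated as the microRNA genes Gm47305 inside Rn7s2 and Gm47287 inside Rn7s1. A further pair of entries, Gm47299 and Gm47295, starts at position 224 and runs past the 3′ end.

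Rn7sk (chr9:78175303-78175633, minus strand) is 331 bases long, of which the first 300 (chr9:78175334-78175633) are printed, and 7 other genes share an exact stretch of 50 bases with it. The capitals mark the longest stretch it shares with one of them, Gm24447 on chromosome 15, which covers positions 1 to 241. With Gm26315 on chromosome 2 the longest shared stretch is 235 bases.
Rn7sk: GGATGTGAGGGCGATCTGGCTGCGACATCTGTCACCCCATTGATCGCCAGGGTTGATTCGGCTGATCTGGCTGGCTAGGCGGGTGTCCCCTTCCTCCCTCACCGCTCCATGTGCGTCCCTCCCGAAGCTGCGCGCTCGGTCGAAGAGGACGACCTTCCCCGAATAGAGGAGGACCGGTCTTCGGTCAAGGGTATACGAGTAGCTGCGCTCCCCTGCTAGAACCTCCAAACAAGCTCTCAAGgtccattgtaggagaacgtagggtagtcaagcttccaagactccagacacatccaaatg

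Rmrp (chr4:43492783-43493063, minus strand) is listed once as a lincRNA of 281 bases and once as a ribozyme of 271 bases. The shorter entry lies inside the longer one, and the capitals mark the 5 bases at each end that only the longer entry has.
Rmrp: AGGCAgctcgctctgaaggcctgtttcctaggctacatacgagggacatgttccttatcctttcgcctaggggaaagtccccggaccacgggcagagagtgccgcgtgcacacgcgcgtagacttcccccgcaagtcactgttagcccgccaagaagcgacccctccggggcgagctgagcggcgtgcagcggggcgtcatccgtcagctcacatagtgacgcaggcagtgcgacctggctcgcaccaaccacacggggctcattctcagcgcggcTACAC

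Malat1 (chr19:5795690-5802672, minus strand) is a single exon of 6983 bases in this annotation. The 86 bases of Gm27694, printed here because this entry keeps a value where Malat1 is listed at 0, are positions 3588 to 3673 of Malat1.
Gm27694: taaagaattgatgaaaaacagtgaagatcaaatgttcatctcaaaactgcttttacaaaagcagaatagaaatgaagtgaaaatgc

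The 4 tables in TPM, a unit corrected for transcript length and library total, and the actinomycin D table in CPM, reads scaled to 1 library total with no length correction, differed greatly in how much of these RNAs they list. Neat1 was above 0 in all 32 libraries, Rn7sk in 31, Malat1 in 27, Rpph1 in 24, Terc and Rn7s2 in 21 each and Rn7s1 in 17. Rmrp was above 0 in 5 libraries as the lincRNA and in 4 as the ribozyme, Rny1 in 3 and Rny3 in 1. Of the 16 groups, both libraries were listed at 0 in 15 for Rny3, 14 for the Rmrp ribozyme, 13 for Rny1, 12 for the Rmrp lincRNA, 6 for Rn7s1, 5 for Terc, 4 for Rn7s2, and 1 each for Malat1 and Rpph1. No group had both libraries at 0 for Neat1 or Rn7sk.

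Rn7sk, the Rmrp ribozyme, Rpph1 and, in its control libraries, Rn7s2 stood far higher in the shE3 table than in the other TPM tables. Rn7sk stood at 2582 to 3603 TPM there, between 1.22 and 7.09 TPM in the 8 libraries of the CD and Rxra OE tables, and between 0 and 12.5 TPM in the iPSC table. The Rmrp ribozyme stood at 4329 to 6944 TPM in the shE3 table and was listed at 0 in the other 28 libraries. Rpph1 stood at 2694 to 3420 TPM in the shE3 table and at most at 3.31 TPM in the other TPM tables. The summed TPM of replication-dependent histone genes, whose mRNAs also lack a poly(A) tail, was 3541 to 6653 in the shE3 libraries and 105 to 425 in the other TPM libraries. Mitochondrially encoded RNAs took 11.8 to 15.5% of TPM in the shE3 table and 50.9 to 62% in the CD and Rxra OE tables. In the iPSC table, where these noncoding RNAs were low, mitochondrially encoded RNAs took 7.46 to 17.4%. How the libraries were prepared is not given in the sources used here, and its part in these differences between tables was not tested. The tables were made separately, so tests were run only within a table.

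**Figure D1:**
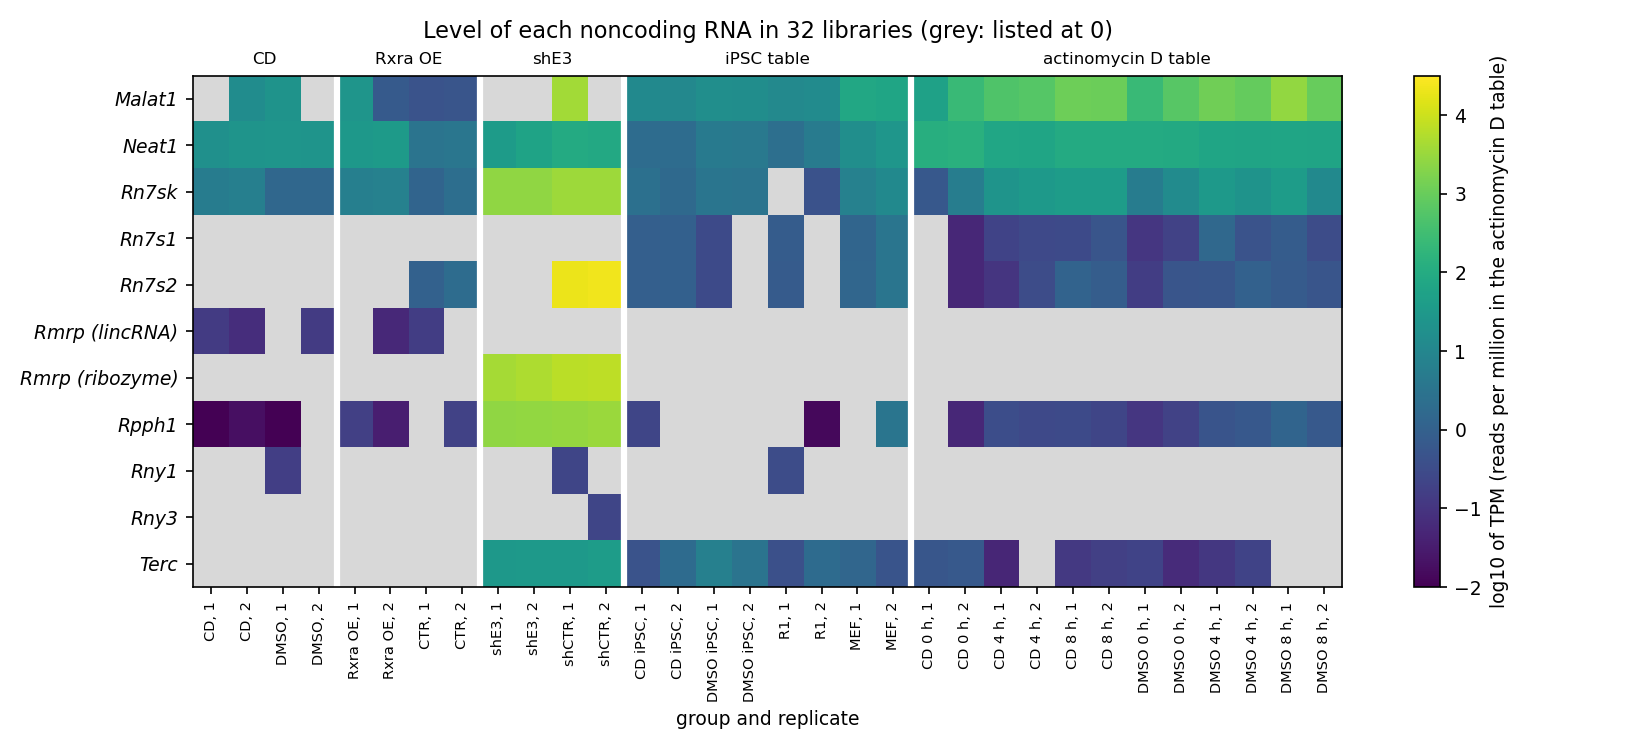
Level of each of the 11 identifiers (rows) in each of the 32 libraries (columns, by group and replicate), as the log10 of TPM or, in the actinomycin D table, of CPM; grey marks a value of 0. Rn7sk, the Rmrp ribozyme and Rpph1 are bright in the 4 shE3-table libraries, Neat1 is above 0 in all 32, and Rny1 and Rny3 are grey nearly throughout.

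Changes were tested with limma on log2(value + 1), in genes with a value of at least 1 in at least 2 libraries of a table, at a Benjamini-Hochberg adjusted p under 0.05 over all genes tested. Of the 11 identifiers, 3 could be tested in the CD table, 3 in the Rxra OE table, 6 in the shE3 table, 4 in the actinomycin D table and 6 in the iPSC table. An identifier that entered only through the group where it was high was biased towards a difference, so the counts that follow are descriptions. They include Rn7s2 among the lower calls for Rxra OE and shE3 and among the higher calls in CD at 8 h. Rn7s1 and Rn7s2, of identical sequence, are counted separately among the lower calls of DMSO iPSC and R1 against MEF. With CD against DMSO 1 was called higher and none lower, where 43.1% of all genes were called higher and 19.5% lower. With Rxra OE against CTR 2 were called higher and 1 lower, against 68.6% and 14% of all genes. After median ratio scaling, which centres the median gene, the shares of all genes were 30.8% higher and 31% lower with CD and 34.9% higher and 36.1% lower with Rxra OE. With shE3 against shCTR none was called higher and 4 lower, against 4.85% and 12.3% (13.9% and 14.1% after scaling). At 0 h 1 was called higher with CD than with DMSO, where 8.22% of all genes were called higher and 6.41% lower (6.69% and 9.19% after scaling). In DMSO cultures 1 was called lower at 4 h (all genes: 1.31% higher and 20.4% lower), and 1 higher and 1 lower at 8 h (3.73% and 27.2%). In CD cultures 2 were called higher and 1 lower at 4 h (9.11% and 36%), and 3 higher and 1 lower at 8 h (13.2% and 41.3%). After scaling the shares of all genes, higher then lower, were 7.4% and 13.2% in DMSO at 4 h, 17.1% and 13.5% in DMSO at 8 h, 25.3% and 25.2% in CD at 4 h and 24.7% and 29.1% in CD at 8 h. Among the iPSC libraries, none was called higher and 3 lower in CD iPSC than in MEF (all genes: 33.3% and 35.4%), 1 higher and 5 lower in DMSO iPSC than in MEF (31.4% and 36.2%), and none higher and 5 lower in R1 than in MEF (36.2% and 32.9%). Between the pluripotent groups, none was called higher and 1 lower in CD iPSC than in DMSO iPSC (20% and 18.5%, or 17.9% and 20.8% after scaling), 1 higher and none lower in CD iPSC than in R1 (7.44% and 16.3%), and 1 higher and none lower in DMSO iPSC than in R1 (6.32% and 14.7%, or 9.4% and 7.17% after scaling). The comparisons share the MEF, R1 and iPSC libraries.

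Exosc3, the gene targeted by the hairpin, stood at 5.97 and 4.01 TPM in shE3 and at 8.86 and 10.2 TPM in shCTR (log2 change -0.83 ± 0.17, SE here and throughout; limma, adjusted p = 0.00767). With its knockdown Rn7sk, the Rmrp ribozyme and Neat1 were called lower, Rpph1 and Terc were not called, and the summed 7SL entries overlapped between the groups. The list was proposed with values of this comparison in view, so the members are given without p-values. Their calls here are descriptions and support nothing further. Rn7sk stood at 2582 and 2675 TPM in shE3 and at 3463 and 3603 TPM in shCTR, a log2 change of -0.43 ± 0.11. The Rmrp ribozyme stood at 4329 and 5030 TPM in shE3 and at 6684 and 6944 TPM in shCTR, a change of -0.55 ± 0.13. In both, every shE3 library lay below every shCTR library, by a margin larger than the gap between libraries of 1 group. Rpph1 stood at 2694 and 2822 TPM in shE3 and at 3005 and 3420 TPM in shCTR, a change of -0.22 ± 0.11 that did not pass as deposited and passed after scaling, at -0.18. Terc, the telomerase RNA, stood at 29.7 and 31.3 TPM in shE3 and at 32.9 and 39.2 TPM in shCTR, a change of -0.23 ± 0.12 that did not pass either. With 1 library of shE3 left out, the calls for Rn7sk and Rmrp were lost in both cases, at similar changes of -0.40 to -0.45 for Rn7sk and -0.44 to -0.65 for Rmrp. With no filter on low values the calls for Rn7sk, Rmrp and Neat1 were lost, in a fit that called only 2 of 30458 genes.

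Neat1, the scaffold of paraspeckles, stood at 37.0 and 57.4 TPM in shE3 and at 96.2 and 84.2 TPM in shCTR. Its change of -0.95 ± 0.17 was the largest among the members whose entry did not switch to 0. Since these are bulk samples, fewer cells of a type and less RNA per cell cannot be told apart. Summed markers of other cell types moved in the same comparison: the 5 macrophage markers summed to 350.0 to 354 TPM in shE3 and 138 to 168 in shCTR, with 4 of 5 at 1 TPM or more in both shE3 libraries and 5 of 5 in shCTR. The 6 extraembryonic endoderm markers, all detected, summed to 76.8 to 83.5 TPM in shE3 and 219.9 to 239 in shCTR. The 5 epithelial markers summed to 61.3 to 64.3 TPM in shE3 and 191 to 216 in shCTR, and the 8 fibroblast markers to 2085 to 2139 in shE3 and 2066 to 2311 in shCTR. Their part in the lower values was not tested. The histone sum was also lower, at 3541 and 3609 TPM in shE3 and 6175 and 6653 TPM in shCTR, and its part was not tested.

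**Figure D2:**
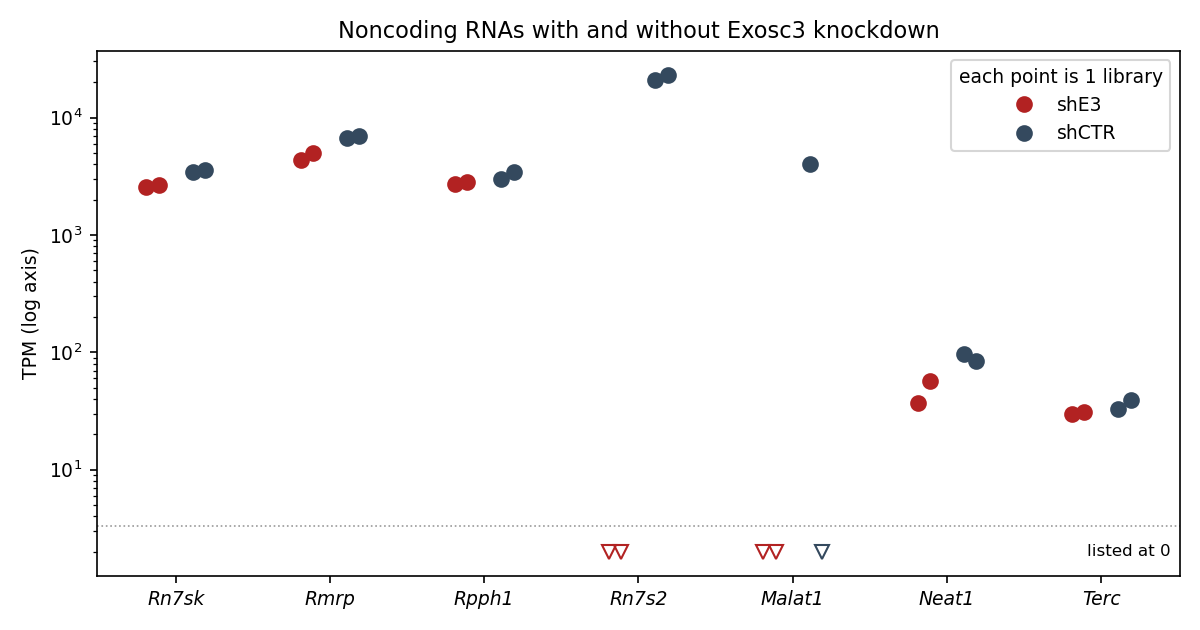
TPM on a log axis for 7 members (the ribozyme entry of Rmrp) in the 2 shE3 libraries (red) and the 2 shCTR libraries (dark), 1 point per library, with open triangles under the dotted line for a value of 0. The shE3 points of Rn7sk, Rmrp, Rpph1, Neat1 and Terc lie below the shCTR points, while Rn7s2 and Malat1 are listed at 0 in some libraries.

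Among genes that overlap these RNAs, Ccdc107 and Ccnb1ip1 were also lower. Ccdc107, a protein-coding gene whose annotated span crosses 164 bases of Rmrp on the other strand, stood at 386 and 375 TPM in shE3 and at 600.1 and 731 TPM in shCTR (-0.80 ± 0.11). Its level in the CD and Rxra OE tables was 11.8 to 23.9 TPM. The annotated span of Ccnb1ip1 overlaps 284 bases of Rpph1 on the same strand, and it stood at 19.0 and 22.4 TPM in shE3 and at 30.0 and 44.9 TPM in shCTR (-0.80 ± 0.17). A transcript of 1 other gene shares an exact stretch of 50 bases with Rpph1. That gene is among the overlapping entries, of which Ccnb1ip1 is the one that overlaps Rpph1. For Ccdc107, on the other strand, exon overlap was not determined. Where exons overlap, reads from such pairs could have been counted for either gene. The values of Rmrp and Rpph1 are uncertain to that extent. Of the copies of Rn7sk, Gm24447 stood at 115 and 114 TPM in shE3 and at 142 and 157 TPM in shCTR, and Gm26315 at 112 and 107 TPM in shE3 and at 139.7 and 149 TPM in shCTR. Summed with its 7 copies, weighted by length, Rn7sk came to 2808 and 2894 TPM in shE3 and to 3744 and 3907 TPM in shCTR, a change of -0.42.

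For 7SL the listed change depended on which entry received the reads. Rn7s2 was listed at 0 in both shE3 libraries and at 20799 and 23193 TPM in shCTR, while Rn7s1, of identical sequence, was listed at 0 in all 4. The fitted change of -14.42 follows from the 0 values and the pseudocount and is not a measure of size. The short entry Gm47305, the 70-base window, did the opposite: it stood at 50664 and 55687 TPM in shE3 and was listed at 0 in both shCTR libraries. Gm47287, the same 70 bases inside Rn7s1, stood at 50683 and 56403 TPM in shE3 and at 64267 and 0 TPM in shCTR. Gm47295 stood at 31675 and 36396 TPM in shE3 and at 40403 and 41878 TPM in shCTR, and Gm47299 was at 0 throughout.

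Summed over the 6 entries at both loci and weighted by length, 7SL came to 31989 and 35738 TPM in shE3 and to 46434 and 34221 TPM in shCTR. The groups overlap, and the change of the sum was -0.24 and was not called, which does not show that the totals were equal. In shE3 the sum held only short entries, which leave out the first part of the RNA, while in shCTR it held the full-length Rn7s2. The sums of the groups thus cover different parts of 7SL. This way of summing was chosen after the values of the entries had been seen. Rn7s6, a 7SL gene on chromosome 6 outside the sum, stood at 384 and 259 TPM in shE3 and at 385 and 457 TPM in shCTR.

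**Figure D3:**
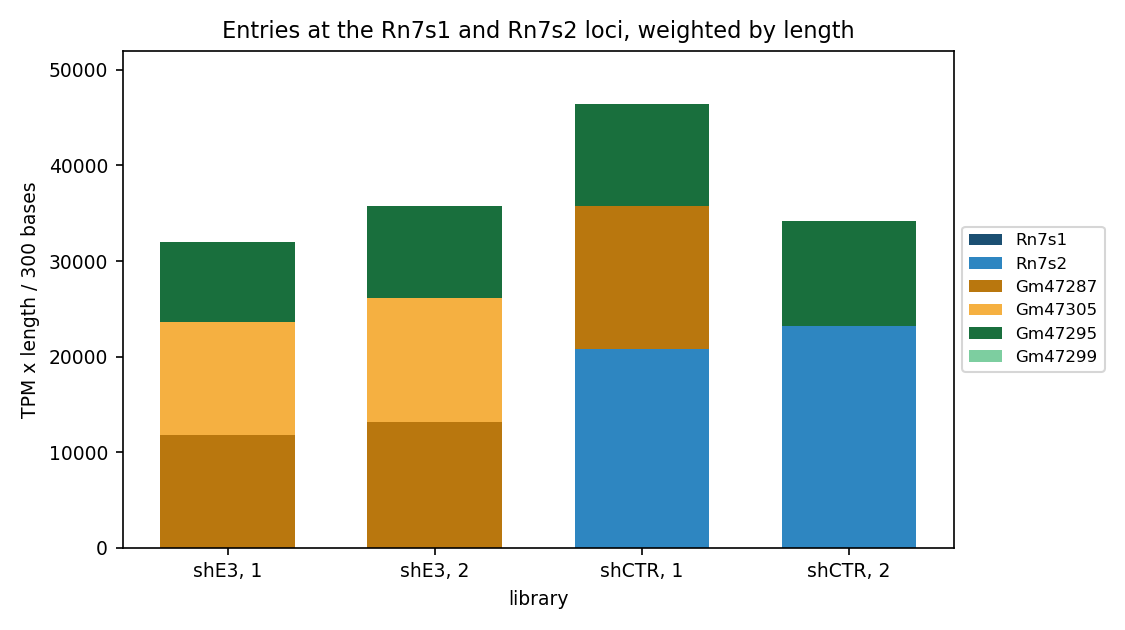
Stacked TPM of the 6 entries at the Rn7s1 and Rn7s2 loci in the 4 shE3-table libraries, each entry weighted by its length over 300 bases. The bar height is the weighted sum of these entries, which cover different parts of 7SL in the 2 groups. The shE3 bars reach 31989 and 35738 and are made of the short entries, while the shCTR bars reach 46434 and 34221 and hold Rn7s2; Rn7s1 and Gm47299 are 0 in all 4.

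Malat1 in the shE3 table shows the same feature of the listing. It was at 0 in both shE3 libraries, and at 4014 and 0 TPM in shCTR. Gm27694, the 86 bases printed above, was nevertheless above 0 in all 4 libraries, at 2895 and 2800 TPM in shE3 and at 3471 and 3598 TPM in shCTR, a change of -0.31 ± 0.11 that did not pass. Gm37376, an entry on the other strand within Malat1, stood at 558 and 565 TPM in shE3 and at 922 and 893 TPM in shCTR (-0.69 ± 0.09). Malat1 was thus listed at 0 in 3 libraries of the shE3 table in which both entries inside it were above 0.

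With CD, Rn7sk was higher in the CD table, but not at 0 h of the actinomycin D table. In the CD table it stood at 5.31 and 6.54 TPM in CD and at 1.49 and 1.5 TPM in DMSO, with no overlap, a change of 1.47 ± 0.11 (limma, adjusted p = 0.000128). The median gene moved by 0.18 in this table; after median ratio scaling the change of Rn7sk was 1.32 (adjusted p = 0.00034). Neat1 stood at 18.1 and 22.9 TPM in CD and at 24.7 and 23.3 TPM in DMSO, a change of -0.23 ± 0.11 that did not pass as deposited (adjusted p = 0.119) and passed after median ratio scaling at -0.42 (adjusted p = 0.0216). Malat1 was listed at 0 and 14.5 TPM in CD and at 21.8 and 0 TPM in DMSO, so that each group held 1 library at 0. Gm27694 inside it was at 17.0 and 14.0 TPM in CD and at 0 and 26.3 TPM in DMSO. Rn7s1, Rn7s2, Rny3, Terc and the Rmrp ribozyme were listed at 0 in all 4 libraries, and Rpph1 and the Rmrp lincRNA did not exceed 0.137 TPM. The short entries at the 7SL loci were not all at 0. Weighted by length, the 6 entries there summed to 1.76 and 8.59 TPM in CD and to 1.67 and 0 TPM in DMSO. Epithelial markers summed to 581 to 621 TPM in CD and 153 to 165 in DMSO, and fibroblast markers to 667 to 698 in CD and 1123 to 1192 in DMSO. Their part in the change of Rn7sk was not tested. At 0 h of the actinomycin D table Rn7sk stood at 0.62 and 5.55 CPM in CD and at 5.40 and 13.6 in DMSO. That change of -1.57 ± 0.65 was in the other direction and was not called (limma, adjusted p = 0.102).

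Rxra, the gene overexpressed, stood at 21.7 TPM in both Rxra OE libraries and at 8.7 and 9.57 TPM in CTR (1.17 ± 0.09, limma, adjusted p = 4.51e-05). Its overexpression came with higher Neat1 and Rn7sk. Neat1 stood at 29.3 and 34.0 TPM in Rxra OE and at 3.12 and 3.47 TPM in CTR, a change of 2.92 ± 0.11 (limma, adjusted p = 8.94e-06) that was 2.28 after median ratio scaling (adjusted p = 1.83e-05). Rn7sk stood at 6.54 and 7.09 TPM in Rxra OE and at 1.22 and 2.20 TPM in CTR, a change of 1.55 ± 0.17 (adjusted p = 0.000207) that was 1.00 after scaling (adjusted p = 0.00285). The scaling matters here because the median gene moved by 0.62. With its 7 copies summed, Rn7sk came to 8.12 and 8.45 TPM in Rxra OE and to 1.5 and 2.20 TPM in CTR. Malat1, too low for the test, stood at 24.2 and 0.681 TPM in Rxra OE and at 0.471 and 0.505 TPM in CTR, so its high mean came from 1 library. Rn7s2 was listed at 0 in both Rxra OE libraries and at 1.04 and 1.97 TPM in CTR. It passed the filter only through CTR, so its fitted change of -1.30 is given without a test. The 6 entries at the 7SL loci summed to 18 and 4.86 TPM in Rxra OE and to 1.51 and 2.77 TPM in CTR. The change of this sum, 1.78, was in the other direction. The sum was chosen after the values had been seen, so it is given without a test, and its Rxra OE libraries lay far apart. Epithelial markers summed to 549 to 563 TPM in Rxra OE and 74.4 to 84.7 in CTR, extraembryonic endoderm markers to 567 to 626 in Rxra OE and 62.8 to 75.6 in CTR, and fibroblast markers to 428 to 439 in Rxra OE and 1216 to 1365 in CTR; their part was not tested.

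During actinomycin D, the share of Malat1 and Rn7sk among all reads rose while Neat1 fell as deposited. Each library held 15382821 to 24186485 reads. Malat1 in CD cultures stood at 53.8 and 259 CPM at 0 h, 504 and 611 at 4 h, and 1187 and 1067 at 8 h. Every later library lay above every earlier one, with changes against 0 h of 2.22 ± 0.67 at 4 h (limma, adjusted p = 0.0212) and 3.24 ± 0.67 at 8 h (adjusted p = 0.0036). In DMSO cultures Malat1 stood at 248 and 659 CPM at 0 h, 1221 and 945 at 4 h, and 2769 and 959 at 8 h. The change was 1.41 ± 0.67 at 4 h, which did not pass (adjusted p = 0.159), and 2.01 ± 0.67 at 8 h (adjusted p = 0.0439). The call at 8 h in DMSO was lost without replicate 1 of DMSO 8 h (1.24, adjusted p = 0.331) or of DMSO 0 h (1.30, adjusted p = 0.288), with spike-in scaling (1.74, adjusted p = 0.0571) and with no filter (adjusted p = 0.12). The call at 4 h in CD was lost without replicate 1 of CD 0 h (1.10, adjusted p = 0.21) and without either CD 4 h library (adjusted p = 0.063 and 0.107). Gm27694 within Malat1 changed by 3.25 ± 0.59 at 8 h in CD (adjusted p = 0.00296) and by 1.71 ± 0.59 in DMSO (adjusted p = 0.0492).

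Rn7sk in CD cultures stood at 0.62 and 5.55 CPM at 0 h, 22.8 and 30.8 at 4 h, and 39.5 and 39.6 at 8 h, changes of 3.08 ± 0.65 and 3.64 ± 0.65 (limma, adjusted p = 0.00379 and 0.00296). In DMSO cultures it stood at 5.40 and 13.6 CPM at 0 h, 33.4 and 22.2 at 4 h, and 40.2 and 12.4 at 8 h, changes of 1.55 ± 0.65 and 1.28 ± 0.65 that did not pass (adjusted p = 0.111 and 0.148). Without replicate 2 of DMSO 8 h the change at 8 h was 2.09 and passed (adjusted p = 0.0397). The 7SK repeat family, counted apart from genes in the same table, stood at 0.951 and 4.15 CPM at 0 h, 3.13 and 6.31 at 4 h, and 9.16 and 9.94 at 8 h in CD. In DMSO the family stood at 2.85 and 6.37 at 0 h, 16.9 and 12.9 at 4 h, and 25.3 and 15.6 at 8 h. The library with more Rn7sk also had more of the family in 6 of 6 groups, and more Malat1 in 5 of 6. After median ratio scaling the 8 h changes were 3.87 for Rn7sk and 3.6 for Malat1 in CD and 1.67 and 2.44 in DMSO. The median gene changed by -0.34 in CD and by -0.33 in DMSO at 8 h as deposited.

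Neat1, the neighbour of Malat1 on chromosome 19, was lower after actinomycin D as deposited. In CD cultures it stood at 118 and 135 CPM at 0 h, 68.3 and 66.6 at 4 h, and 96.0 and 95.2 at 8 h. In DMSO cultures it stood at 96.8 and 89.6 at 0 h, 65.4 and 60.9 at 4 h, and 65.8 and 63.2 at 8 h. As deposited it fell by 0.90 at 4 h and by 0.40 at 8 h in CD (limma, adjusted p = 0.00106 and 0.0156), and by 0.55 and 0.52 in DMSO (adjusted p = 0.0118 and 0.0122). After median ratio scaling the call at 4 h in CD remained, at -0.51 (adjusted p = 0.0126), and the changes at 8 h were -0.03 in CD and -0.10 in DMSO, neither called. On whole reads neither edgeR (0.02 in CD and -0.13 in DMSO) nor DESeq2 (-0.04 and -0.09) called a change at 8 h. Scaling by the ERCC spike-ins moved Neat1 the other way, to -0.74 in CD and -0.79 in DMSO at 8 h (limma, adjusted p = 0.0116 and 0.0375). Spike-in scaled Neat1 stood at 169 and 133 at 0 h and 86.5 and 92.3 at 8 h in CD, and at 107 and 83.1 at 0 h and 54.7 and 54 at 8 h in DMSO. At 4 h the change with spike-in scaling was -1.07 in CD (adjusted p = 0.00837) and -0.57 in DMSO, which did not pass (adjusted p = 0.102). As deposited, the calls at 8 h in CD and at 4 and 8 h in DMSO were also lost in 8 of the fits that left out 1 library. The changes in these fits were similar, at -0.31 to -0.60. The fits that lost the call at 4 h in DMSO called hardly any gene at all. The short entries near the 5′ end lie inside Neat1 on the same strand and are not separate support. Gm27533 changed by -1.20 ± 0.23 at 4 h in CD and by -1.13 ± 0.23 in DMSO (limma, adjusted p = 0.0026 and 0.0109). Gm27505 was called lower in both arms at 4 h, while Gm28006 was called in CD and not in DMSO (-0.64, adjusted p = 0.126). After median ratio scaling Gm27533 stayed called at 4 h in both arms (-0.85 and -0.89), whereas Neat1 in DMSO did not (-0.25, adjusted p = 0.202).

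Between arms at 0 h, Neat1 was higher in CD than in DMSO by 0.44 ± 0.12 as deposited (limma, adjusted p = 0.0374), and by 0.28 after median ratio scaling, where it did not pass (adjusted p = 0.163). With spike-in scaling the change was 0.66 and did not pass (adjusted p = 0.0855), nor did it by edgeR (0.25, adjusted p = 0.199) or DESeq2 (0.29, adjusted p = 0.184). It also missed the threshold without either CD 0 h library or replicate 2 of DMSO 0 h (adjusted p of 0.0526 to 0.225). Extraembryonic endoderm markers summed to 1410 to 2731 CPM in CD and 392 to 804 in DMSO at 0 h, epithelial markers to 1432 to 1559 in CD and 1071 to 1088 in DMSO, fibroblast markers to 2389 to 2619 in CD and 3824 to 4179 in DMSO, and macrophage markers to 137 to 216 in CD and 319 to 453 in DMSO, with every marker of these 4 lists at 1 CPM or more in all 4 libraries. Their part in the difference of Neat1 was not tested. Malat1 (-1.76 ± 0.67, adjusted p = 0.0852) and Rn7sk (-1.57 ± 0.65, adjusted p = 0.102) were not called by limma, and their 0 h libraries overlap between arms. Without replicate 2 of CD 0 h both were called lower (-2.89, adjusted p = 0.0083, and -2.58, adjusted p = 0.0134), and Malat1 also without replicate 1 of DMSO 0 h (-2.47, adjusted p = 0.0426). In the test of the difference of the 8 h change between arms, none of the 4 members tested was called: the differences were 1.23 ± 0.95 for Malat1 (adjusted p = 0.588), 2.36 ± 0.92 for Rn7sk (0.406), 0.66 ± 0.30 for Rn7s2 (0.443) and 0.12 ± 0.17 for Neat1 (0.772). In that test 0.00586% of all genes were called, and 1939 genes had an unadjusted p under 0.05. The rarer RNAs rest on few reads. Rn7s2 had 0 and 1 reads at 0 h and 20 and 14 at 8 h in CD, and 3 and 8 at 0 h and 12 and 8 at 8 h in DMSO. It passed the filter only through replicate 1 of CD 8 h and replicate 2 of DMSO 4 h. Its fitted change of 0.95 at 8 h in CD is therefore given without a test. Rn7s1, of the same sequence, had 0 and 1 reads at 0 h and 5 and 9 at 8 h in CD. In DMSO it had 2 and 3 reads at 0 h, 28 and 9 at 4 h, and 13 and 5 at 8 h. Rpph1 had at most 21 reads and Terc at most 13 reads in a library, and Terc had 13 and 12 reads in CD at 0 h and 4 and 1 in DMSO at 0 h. Both Rmrp entries, Rny1 and Rny3 had 0 reads in all 12 libraries, which allows up to 0.124 to 0.195 CPM per library if 3 counts are taken as the limit, for counting error only.

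**Figure D4:**
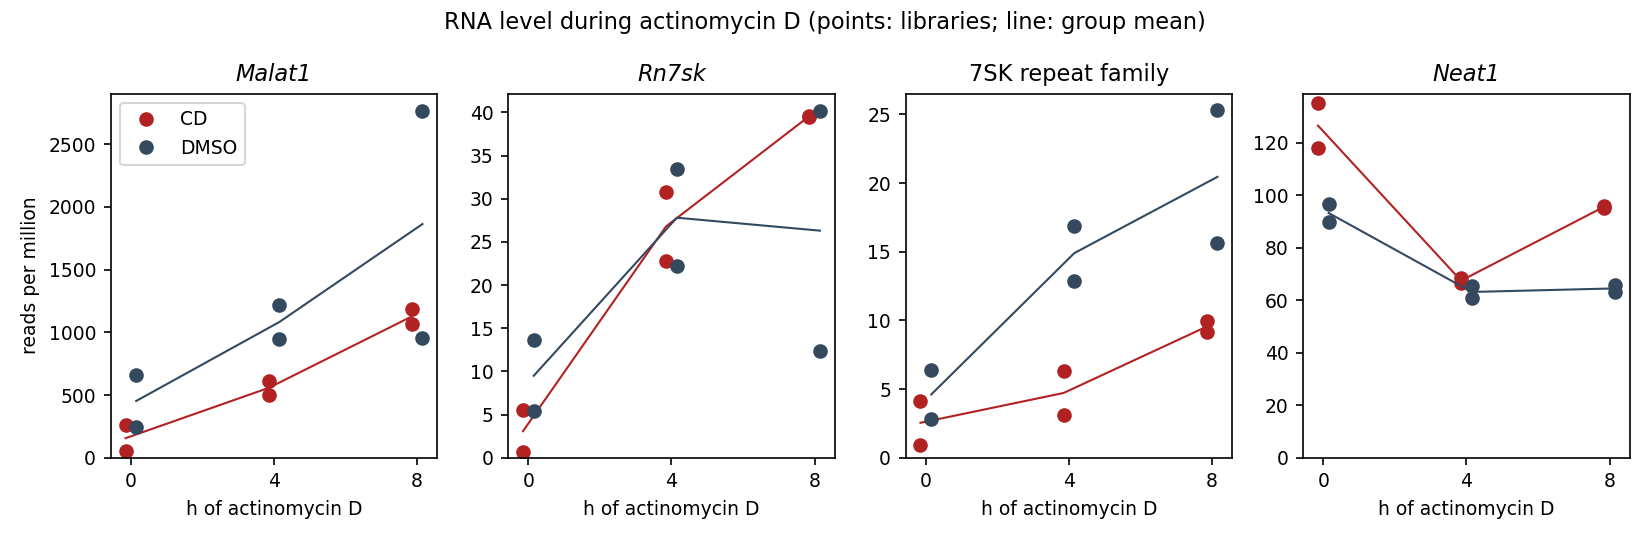
CPM against hours of actinomycin D for Malat1, Rn7sk, the 7SK repeat family and Neat1, with 1 point per library and a line through the group means, for CD (red) and DMSO (dark). Malat1, Rn7sk and the repeat family climb in CD to 1067 to 1187, 39.5 to 39.6 and 9.16 to 9.94 at 8 h, while the DMSO libraries at 8 h lie far apart for Malat1 (2769 and 959) and Neat1 drops by 4 h in both arms.

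In the iPSC table Malat1, Neat1 and Rn7sk were lower in all 3 pluripotent groups than in fibroblasts. Malat1 stood at 12.0 and 10.9 TPM in CD iPSC, 15.9 and 15.7 in DMSO iPSC, 11.7 and 13.4 in R1, and 79.8 and 65.8 in MEF. The changes against MEF were -2.56, -2.13 and -2.44 in CD iPSC, DMSO iPSC and R1, each ± 0.14 (limma, adjusted p = 4.66e-06, 1.19e-05 and 5.64e-06). CD iPSC and R1 overlapped in Malat1, and DMSO iPSC lay above both. The difference of CD iPSC from DMSO iPSC was -0.43 ± 0.14 (adjusted p = 0.0486), but no fit without 1 of these 4 libraries called it (adjusted p of 0.059 to 0.159). In order of mean level, MEF was followed by DMSO iPSC, R1 and CD iPSC; DMSO iPSC and R1 differed by 0.31 ± 0.14, which did not pass as deposited (adjusted p = 0.159) and passed after median ratio scaling (0.49, adjusted p = 0.0452), and CD iPSC and R1 did not differ beyond their spread (-0.12 ± 0.14, adjusted p = 0.607).

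Neat1 stood at 1.99 and 2.00 TPM in CD iPSC, 4.82 and 4.24 in DMSO iPSC, 2.34 and 5.05 in R1, and 16.7 and 26.0 in MEF. The changes against MEF were -2.87, -1.99 and -2.28, each ± 0.32 (limma, adjusted p = 0.000148, 0.00103 and 0.000486). The libraries of R1 spanned those of DMSO iPSC. The change of CD iPSC against DMSO iPSC was -0.88 ± 0.32, which did not pass as deposited (adjusted p = 0.0652) and passed after median ratio scaling (-0.94, adjusted p = 0.0487).

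Rn7sk stood at 2.51 and 1.68 TPM in CD iPSC, 3.42 and 3.11 in DMSO iPSC, 0 and 0.433 in R1, and 7.29 and 12.5 in MEF. The changes against MEF were -1.79, -1.31 and -3.14, each ± 0.30 (limma, adjusted p = 0.00131, 0.00619 and 6.67e-05). The call for DMSO iPSC was lost with a pseudocount of 0.1 (-1.52, adjusted p = 0.121). It was also higher than in R1 in CD iPSC (1.36 ± 0.30, adjusted p = 0.0193) and in DMSO iPSC (1.83 ± 0.30, adjusted p = 0.00893), calls that were lost without replicate 1 of R1 (1.10 and 1.57, adjusted p = 0.102 and 0.0568), without replicate 1 of CD iPSC (1.16, adjusted p = 0.0679) and without either DMSO iPSC library (1.78 and 1.89, adjusted p = 0.0556 and 0.0562). The order of mean level was MEF, DMSO iPSC, CD iPSC and R1, and DMSO iPSC and CD iPSC did not differ beyond their spread (-0.48 ± 0.30, adjusted p = 0.256). The 7 copies of Rn7sk also had their lowest mean in R1: they summed to 1.54 and 2.1 TPM in CD iPSC, 0.685 and 2.49 in DMSO iPSC, 0 and 0.867 in R1, and 4.85 and 8.00 in MEF.

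Terc, whose product is the telomerase template, did not follow that pattern. It stood at 0.453 and 1.85 TPM in CD iPSC, 6.64 and 3.24 in DMSO iPSC, 0.397 and 1.88 in R1, and 1.43 and 0.501 in MEF. DMSO iPSC was higher than MEF by 1.58 ± 0.50 (limma, adjusted p = 0.0262), a call lost without replicate 1 of DMSO iPSC (1.15, adjusted p = 0.147) or replicate 2 of MEF (1.23, adjusted p = 0.136), with a pseudocount of 0.1 (adjusted p = 0.0635) and with no filter (adjusted p = 0.0615). The change of CD iPSC against DMSO iPSC was -1.49 ± 0.50, which did not pass as deposited (adjusted p = 0.0536) and passed after median ratio scaling (adjusted p = 0.0462). CD iPSC, R1 and MEF overlapped. Rn7s1 stood at 0.917 and 0.973 TPM in CD iPSC, 0.285 and 0 in DMSO iPSC, 0.773 and 0 in R1, and 1.35 and 3.38 in MEF. Rn7s2, of the same sequence, had nearly the same values, with 0.917 and 0.958 TPM in CD iPSC and 1.36 and 3.38 in MEF. Both passed the filter on low values only through MEF, so their lower values elsewhere are given without a test. Rpph1 was above 1 TPM only in replicate 2 of MEF, at 3.31 TPM. Both Rmrp entries and Rny3 were listed at 0 in all 8 libraries, and Rny1 in 7.

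Markers separated the pluripotent groups from MEF. The 8 pluripotency markers summed to 6433 to 7034 TPM in CD iPSC, 6161 to 6326 in DMSO iPSC, 7301 to 7459 in R1, and 0.491 to 0.7 in MEF, where Pou5f1, Zfp42, Esrrb, Dppa5a, Utf1 and Tdgf1 were at 0. The 8 fibroblast markers summed to 91.8 to 104 TPM in CD iPSC, 235 to 241 in DMSO iPSC, 84.7 to 89.1 in R1, and 16623 to 17431 in MEF. Macrophage markers, 5 of 5 detected in MEF, summed to 51.3 to 55.5 in CD iPSC, 82.8 to 92.3 in DMSO iPSC, 38.6 to 43.9 in R1, and 1046 to 1260 in MEF; their part in the higher Malat1, Neat1 and Rn7sk of MEF was not tested.

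**Figure D5:**
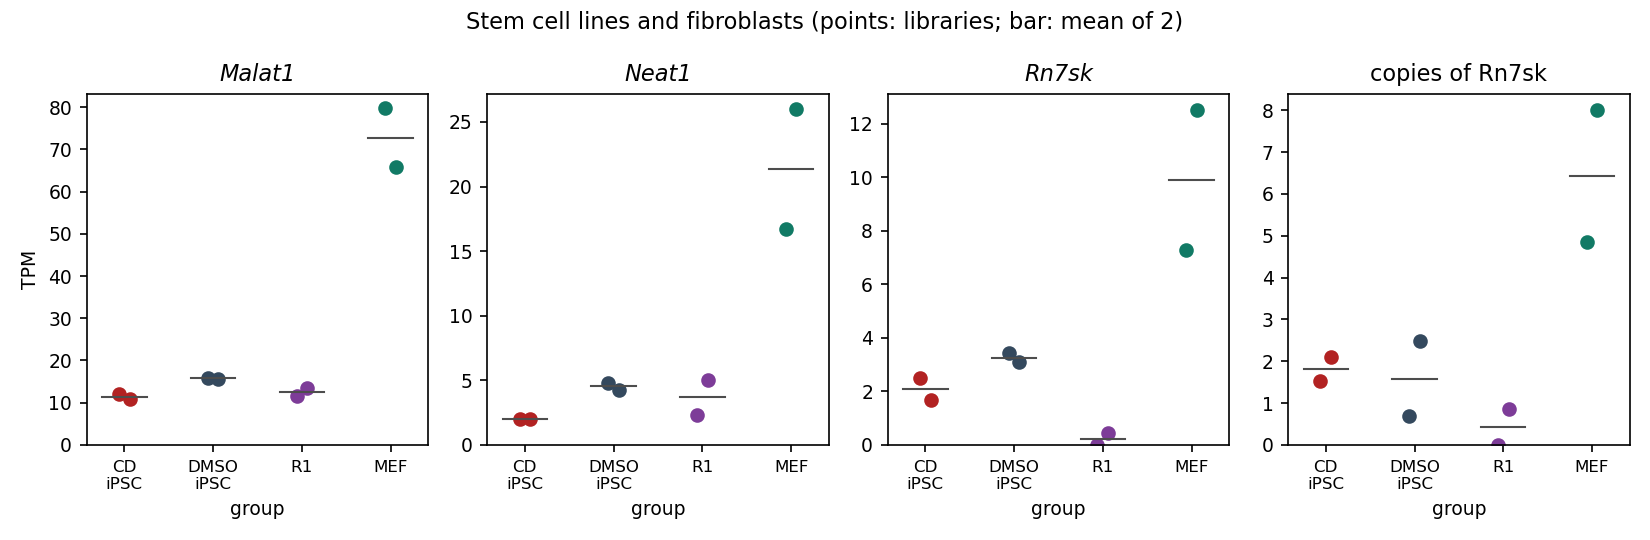
TPM of Malat1, Neat1, Rn7sk and the length-weighted sum of the 7 copies of Rn7sk in CD iPSC, DMSO iPSC, R1 and MEF, with 1 point per library and a bar at the mean of 2. In each panel both MEF points lie above the other 6, and R1 has the lowest mean for Rn7sk (0 and 0.433 TPM) and for its copies (0 and 0.867 TPM).

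The proteins that work with these RNAs were read from lists chosen with earlier results known. With shE3 against shCTR, 2 of the 7 genes of the 7SK particle and P-TEFb were lower and none higher: Larp7, which binds the 3′ end of 7SK, at 10.1 and 8.76 TPM in shE3 and 14.3 and 13.2 in shCTR (-0.50 ± 0.13), and the cyclin Ccnt2 (-0.47 ± 0.10). Of the 10 signal recognition particle genes and the 11 RNase P and MRP protein genes limma called 0, with 1 and 4 at an unadjusted p under 0.05 and, after median ratio scaling, 2 and 1 called higher. Of 7 Y RNA binding protein genes 2 were lower, and 2 lower and 1 higher after scaling. Of 29 RNA polymerase III genes 2 were lower, and 4 lower and 3 higher after scaling. These counts stand beside 12.3% of all genes lower as deposited, and 14.1% lower and 13.9% higher after scaling. Lower calls were made for 3 of 16 telomerase and shelterin genes, among them Dkc1, the dyskerin that binds Terc, at 11.9 and 14.2 TPM in shE3 and 18.8 and 18.1 in shCTR (-0.47 ± 0.12). Of 11 paraspeckle genes 4 were lower, including Tardbp (-0.72 ± 0.12) and Sfpq (-0.49 ± 0.09), and of 13 nuclear speckle and MALAT1-processing genes 6 were lower, including the splicing factors Srsf7 (-0.62 ± 0.10) and Srsf2 (-0.55 ± 0.10). Of 9 other nuclear long noncoding RNAs 5 were lower and none higher, with a median change of -0.57 where the median of all genes was -0.04. Firre, a nuclear RNA from the X chromosome, stood at 16.3 and 15 TPM in shE3 and at 26.1 and 28.4 TPM in shCTR (-0.76 ± 0.11), and Xist, the RNA of X inactivation, at 44.7 and 41.9 TPM in shE3 and at 66.1 and 70.1 TPM in shCTR (-0.64 ± 0.10). Of 14 other structured RNAs 3 were lower and none higher as deposited, and 1 was lower and 1 higher after scaling. Among those lower as deposited was Rnu2-10, a U2 spliceosomal RNA gene, at 20.4 and 22.2 TPM in shE3 and 28.7 and 28.3 in shCTR (-0.40 ± 0.11).

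With CD against DMSO, Larp7 had 16.6 and 16.6 TPM with CD, against 7.62 and 7.76 TPM with DMSO (1.02 ± 0.07, limma, adjusted p = 8.18e-05). Of the 7 genes of its list 3 were higher and none lower, and 2 higher and 1 lower after median ratio scaling. The higher counts are near the shares of all genes, 43.1% as deposited and 30.8% after scaling, where 19.5% and 31% were lower. Paraspeckle genes were higher in 10 of 11 (median 0.49, all genes 0.18) and in 9 after median ratio scaling, with Sfpq at 53.5 and 52.7 TPM in CD and 33.8 and 36.0 in DMSO. With Rxra OE, Larp7 stood at 21.0 TPM in both libraries and at 5.66 and 5.71 TPM in CTR (1.72 ± 0.08, adjusted p = 1.11e-05), and all 11 paraspeckle genes were higher, 10 of them after scaling. Firre stood at 12.8 and 13.2 TPM in Rxra OE and at 0.994 and 1.28 TPM in CTR (2.72 ± 0.10, adjusted p = 8.94e-06). RNA polymerase III genes were higher in 27 of 29 with Rxra OE as deposited, where 68.6% of all genes were, and in 11 of 29 after scaling, near the 34.9% of all genes, with 3 lower.

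At 8 h of actinomycin D in CD, genes of the 7SK particle were lower in 6 of 7 (median -1.54, all genes -0.34), in the comparison in which Rn7sk was higher. Hexim1 stood at 15.3 and 13.9 CPM at 8 h and at 111 and 46.4 at 0 h (-2.22 ± 0.41, limma, adjusted p = 0.00296), and Mepce, which caps the 5′ end of 7SK, at 4.02 and 7.38 at 8 h and 55.2 and 25.3 at 0 h (-2.57 ± 0.45, adjusted p = 0.00296). RNase P and MRP protein genes were lower in 11 of 11, and in 8 after scaling, where 41.3% and 29.1% of all genes were. Among 10 other nuclear long noncoding RNAs 3 were higher and 1 lower as deposited, where 13.2% of all genes were higher and 41.3% lower. Xist stood at 324 and 300.1 CPM at 8 h and at 145 and 199 at 0 h (0.88 ± 0.19, limma, adjusted p = 0.00418). In DMSO at 8 h 5 of 7 genes of the 7SK particle and 6 of 11 RNase P and MRP genes were lower, and 2 and 1 after scaling. Of all genes, 27.2% were lower there as deposited and 13.5% after scaling.

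Dkc1 stood at 315 and 293 TPM in CD iPSC, 221 and 227 in DMSO iPSC, 205 and 188 in R1, and 31.3 and 33.7 in MEF, and telomerase and shelterin genes were called higher than in MEF in 9, 11 and 13 of 16 for the 3 groups in that order, where 33.3%, 31.4% and 36.2% of all genes were. RNA polymerase III genes were called higher in 11, 10 and 15 of 29 and lower in 4, 1 and 3, so that the counts in CD iPSC and DMSO iPSC are near the share of all genes. Polr3g, the RNA polymerase III subunit known from pluripotent cells, stood at 64.7 and 71.7 TPM in CD iPSC, 65 and 60.5 in DMSO iPSC, 91.7 and 87.1 in R1, and 2.99 and 5.62 in MEF. Paraspeckle genes were higher than in MEF in 3 of 11 for CD iPSC, with 2 lower, and in 9 and 8 for DMSO iPSC and R1, with none lower, while Neat1 was lower in all 3. Rpp25, a protein of RNase P and MRP, stood at 41.6 and 24.3 TPM in CD iPSC, 115 and 132 in DMSO iPSC, 70.0 and 81.4 in R1, and 1.84 and 1.94 in MEF.

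Across the 20 TPM libraries, with each table centred on its own mean, the genes most like a member by Pearson correlation of log2(TPM + 1) were Rbmx (r = 0.96), Brf1 (0.95) and Smarce1 (0.94) for Neat1, Fabp5 (0.95), Ddx24 (0.94) and Nudt8 (0.92) for Rn7sk, and Ube2v1 (0.82), Gm44126 (0.70) and Gm44466 (0.68) for Malat1. These are descriptions over libraries that share groups and scaling, and for Malat1 only 12 of the 20 libraries reached 1 TPM. In the shE3 table Malat1 was listed at 4014 and 0 TPM in shCTR and at 0 in both shE3 libraries. Its correlations therefore rest largely on 1 library.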

How the data were processed

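Gene levels in 32 libraries were read from 5 deposited tables. According to the submitters' processing notes, reads passed through fastp 0.20.1, HISAT2 2.1.0 and StringTie 2.0 on mm10; no options are stated. The authors deposited TPM values in 4 of the tables, so depth there is unknown. The actinomycin D table names no unit per the file headers: its deposited signal values are reads scaled to 1 total per library, called CPM here, and gave whole reads within 0.001 for 99.99 to 100% of values, with 15382821 to 24186485 reads per library. GENCODE M21 named 55141 of the 55401 identifiers. Members, lists and tests were chosen with earlier results of these data known; the sums over 7SL and 7SK entries, and totals without the members, were added after seeing the values.

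Genes at 1 or more in at least 2 libraries entered limma 3.58.1 (R 4.3.3), fitted to log2(value + 1) with a mean-variance trend, 2-sided, with Benjamini-Hochberg adjustment at 0.05. The pseudocount understates changes of low genes. The actinomycin D and iPSC tables had 1 fit each over their groups. All members are named, with up to 3 genes of a list by smallest p; some items chosen by this rule are not reported here. Alternatives were edgeR 4.0.16 and DESeq2 1.42.0 on whole reads, ERCC spike-in and median ratio scaling, other filters and pseudocounts, a replicate block and left-out libraries. The fit was tested on simulated data. Figures used Python 3.11.15 and matplotlib 3.10.9.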

Additional observations from a re-analysis of the deposited data

Results flagged for a closer look

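The libraries of CD and DMSO did not overlap in Neat1 in 3 tables, with CD above DMSO in 1 and below it in 2. As deposited only the difference at 0 h passed (limma, adjusted p = 0.0374, against 0.119 in the CD table and 0.0652 in the iPSC table), and after median ratio scaling only the other two did (0.0216 in the CD table, 0.0487 in the iPSC table and 0.163 at 0 h). Both the rise at 0 h and the fall in CD iPSC passed with a filter at 5 (adjusted p = 0.0315 and 0.0466) and without mitochondrial genes (0.0479 and 0.0466). Neat1 averaged 20.5 TPM in CD and 24.0 TPM in DMSO in the CD table, 127 CPM in CD and 93.2 in DMSO at 0 h of the actinomycin D table, and 2.00 TPM in CD iPSC and 4.53 TPM in DMSO iPSC. Rn7sk averaged 5.92 TPM in CD and 1.49 TPM in DMSO in the CD table but 2.09 TPM in CD iPSC and 3.26 TPM in DMSO iPSC. At 0 h of the actinomycin D table it averaged 3.08 CPM in CD and 9.51 in DMSO, with overlapping libraries. Terc averaged 0.592 CPM in CD and 0.135 in DMSO at 0 h but 1.15 TPM in CD iPSC and 4.94 TPM in DMSO iPSC. The differences between tables were not tested, since the tables were made separately.

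Gm47305, a 70-base entry inside Rn7s2 that is no member, stood at 50664 and 55687 TPM in shE3 and was listed at 0 in both shCTR libraries.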

How the results depend on the processing

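Counts of members called, as deposited and under alternatives, moved by over 1.5 times as follows. With median ratio scaling they were 2 (not 1) for CD against DMSO, 0 (not 1) for CD 0 h against DMSO 0 h and for DMSO 4 h, 1 (not 2) for DMSO 8 h, 3 (not 1) for CD iPSC against DMSO iPSC and 2 (not 1) for DMSO iPSC against R1. edgeR, DESeq2 and spike-in scaling each gave 0 for CD 0 h against DMSO 0 h, 0 for DMSO 4 h and 1 for DMSO 8 h. Fits of only the groups compared gave 0 for CD 0 h against DMSO 0 h, 3 for DMSO 4 h, 0 for DMSO 8 h, 2 (not 4) for CD 8 h and 2 for DMSO iPSC against R1. With no filter the counts were 1 (not 4) for shE3, where only 2 of 30458 genes were called, and 0 for CD iPSC against DMSO iPSC. A filter at 5 gave 2 for CD iPSC against DMSO iPSC, 3 (not 6) for DMSO iPSC against MEF and 3 (not 5) for R1 against MEF. A pseudocount of 0.1 also gave 3 for R1 against MEF, and leaving out mitochondrial genes gave 2 for CD iPSC against DMSO iPSC. The cause was not tested.

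Whether replicate numbers pair the samples could not be settled with 2 libraries per group. Correlations of same-numbered deviations were -0.11 for CD and DMSO, -0.14 for Rxra OE and CTR and 0.08 for shE3 and shCTR. They ran from -0.69 to 0.54 in the actinomycin D table, with 0.54 for CD 0 h and DMSO 0 h, and from -0.13 to 0.06 in the iPSC table. A replicate block gave 0 for CD 0 h against DMSO 0 h, 1 for DMSO 8 h, 0 for CD iPSC against DMSO iPSC and 3 for shE3, where Rn7sk missed the threshold. The other counts were as deposited.

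Leaving out 1 library at a time gave 1 to 2 members called for CD against DMSO, 2 to 3 for Rxra OE, 2 to 5 for shE3, 0 to 2 for CD 0 h against DMSO 0 h, 0 to 1 for DMSO 4 h, 0 to 3 for DMSO 8 h, 2 to 3 for CD 4 h, 2 to 4 for CD 8 h and 0 to 0 for the difference of the 8 h change. In the iPSC table it gave 0 to 1 for CD iPSC against DMSO iPSC, 3 to 3 for CD iPSC against MEF, 3 to 5 for DMSO iPSC against MEF, 3 to 5 for R1 against MEF, and 0 to 1 for each iPSC group against R1. A lone remaining library was assumed to vary like the other groups.

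Directions turned in 12 alternatives. Malat1 with CD against DMSO was 1.70 without replicate 1 of CD and -2.53 without replicate 2 of DMSO, and Neat1 at 8 h in CD was 0.02 by edgeR. Without replicate 1 of R1, DMSO iPSC against R1 was -0.13 for Neat1 and 0.18 for each of Rn7s1 and Rn7s2; without replicate 2 of R1 it was 0.72, -0.65 and -0.62 for these 3. Rn7s2 with Rxra OE was 1.78 as the sum of 6 entries. Terc in CD iPSC against MEF ran to 0.57 without replicate 1 of CD iPSC but was -0.40 without replicate 2 of CD iPSC and -0.26 without replicate 2 of MEF; in R1 against MEF it ran to 0.59 without replicate 1 of R1 but was -0.45 without replicate 2 of R1 and -0.28 without replicate 2 of MEF; in CD iPSC against R1 it was -0.46 without replicate 2 of CD iPSC and -0.50 without replicate 1 of R1. Among single members, 778 other values kept direction and call, 72 kept direction and lost the call, and 19 kept direction and gained it. Depth is unknown for the TPM tables.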
